A study of Homo sapiens with 6 samples.

Results

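The 10 genes described here encode the death ligand TRAIL and the proteins through which death ligands signal in the established human line AsPC-1, grown from a pancreatic cancer. They were chosen by symbol from 58735 annotated genes: the ligand TNFSF10, the receptors TNFRSF10A, TNFRSF10B, TNFRSF10D, FAS, TNFRSF1A and TNFRSF21, the adaptor FADD, the initiator caspase CASP8 and its inhibitor CFLAR. RNA sequencing compared 3 libraries of cells given an empty lentivirus (labelled NC, genotype WT, here Vector) with 3 libraries of cells given a lentivirus that overexpresses MMP28, a matrix metalloproteinase (labelled OE, here OE-MMP28). The study's methods describe stable lines from a GFP and puromycin-resistance vector, selected with puromycin. The control therefore also carried a virus. In the overexpressing cells the virus carried MMP28 cDNA, whose reads were not separated from those of the cells' own MMP28. The methods give 3 samples per group for sequencing and state in general that cell experiments were repeated independently. They do not say whether these 3 libraries came from separate cultures, so every p-value below measures only the spread between these libraries, which may be technical.

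Death receptors are members of the TNF receptor superfamily that carry a death domain inside the cell. When TRAIL binds TNFRSF10A or TNFRSF10B, or FAS ligand binds FAS, the death domain recruits FADD, which in turn gathers caspase-8 into a complex where it is activated and starts apoptosis. CFLAR (c-FLIP) enters the same complex through its death effector domains and limits caspase-8 activation, and TNFRSF10D is a decoy that binds TRAIL without a full death domain. Pancreatic cancer cells are known for a variable response to TRAIL and to FAS ligand.

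In OE-MMP28 cells, FAS, TNFRSF10B and CFLAR were lower and FADD and TNFRSF21 were higher than in Vector cells. FAS changed most downwards, to 0.372 times the Vector level, and FADD most upwards, to 2.20 times. TNFSF10, TNFRSF10A, TNFRSF10D, TNFRSF1A and CASP8 did not pass the test. A gene was called at a Benjamini-Hochberg adjusted p under 0.05 in edgeR's quasi-likelihood test over 15319 genes, all 10 members among them. By that rule 5 of the 10 were called, 2 higher and 3 lower, beside 23.4% of all genes tested (11.7% higher and 11.6% lower). The 10 were chosen with earlier results of these data known, so this share is not a test of the pathway. The median log2 fold change of the 10 was −0.25, beside 0.01 over all genes tested. In bulk RNA, fewer cells that express a gene and less RNA per cell cannot be told apart.

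The libraries held 13633249 to 14985715 counted reads in Vector and 15568066 to 16691458 in OE-MMP28, so 3 reads corresponded to 0.180 to 0.220 CPM (counts scaled to library size). Mitochondrial genes took 11.9% to 14.8% of the reads in Vector and 8.80% to 11.9% in OE-MMP28. MMP28 itself was measured at 5.17, 9.11 and 8.43 FPKM (fragments scaled to gene length in kilobases and to library size) in Vector and at 13.1, 13.9 and 15.1 in OE-MMP28, in the direction of the labels (log2 fold change 0.90, SE 0.19, edgeR adjusted p = 0.00226). The 5 epithelial markers examined summed to 2657 to 3629 FPKM in Vector and 3557 to 4365 in OE-MMP28. In edgeR, KRT19 was higher (log2 fold change 0.71, adjusted p = 0.00175), CLDN4 was lower (−0.61, adjusted p = 0.0135) and EPCAM, KRT8 and KRT18 were not called. By contrast, the leukocyte markers summed to at most 1.26 and the endothelial markers to at most 0.293, of which PECAM1 was called higher at no more than 0.230 FPKM (edgeR adjusted p = 0.00361). Among the leukocyte markers CD3E had no read in any library. The fibroblast markers summed to 33.9 to 40.9 FPKM in Vector and 39.3 to 57.0 in OE-MMP28, nearly all of it LUM. The part of these differences in the results below was not tested, except that mitochondrial genes were left out in an alternative fit, after which TNFRSF21 missed the threshold (adjusted p = 0.0503) and the other 4 calls were kept.

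Levels are given below as deposited FPKM in the order of replicates 1, 2 and 3, with the mean ± SD of n = 3 libraries. Since FPKM is per length, it also allows genes to be ordered, but the length is that of all annotated exons merged, which was 22529 bases for CFLAR, 7243 for CASP8, 4253 for FAS and 1841 for FADD. The order and the ratios between genes depend on these lengths, whereas the comparison of a gene between groups does not. In Vector cells the order of the means was TNFRSF21, TNFRSF10B, TNFRSF10D, TNFRSF1A, CASP8, CFLAR, TNFRSF10A, FAS, FADD and TNFSF10. The neighbours TNFRSF10D and TNFRSF1A, CASP8 and CFLAR, and CFLAR and TNFRSF10A overlapped in range. In OE-MMP28 cells TNFRSF21 and TNFRSF10B again stood first and TNFSF10 last. FADD moved from rank 9 to rank 6, CFLAR from rank 6 to rank 8 and FAS from rank 8 to rank 9. CASP8, FADD, TNFRSF10A and CFLAR formed a run in which each overlapped its neighbour in OE-MMP28.

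**Figure D1:**
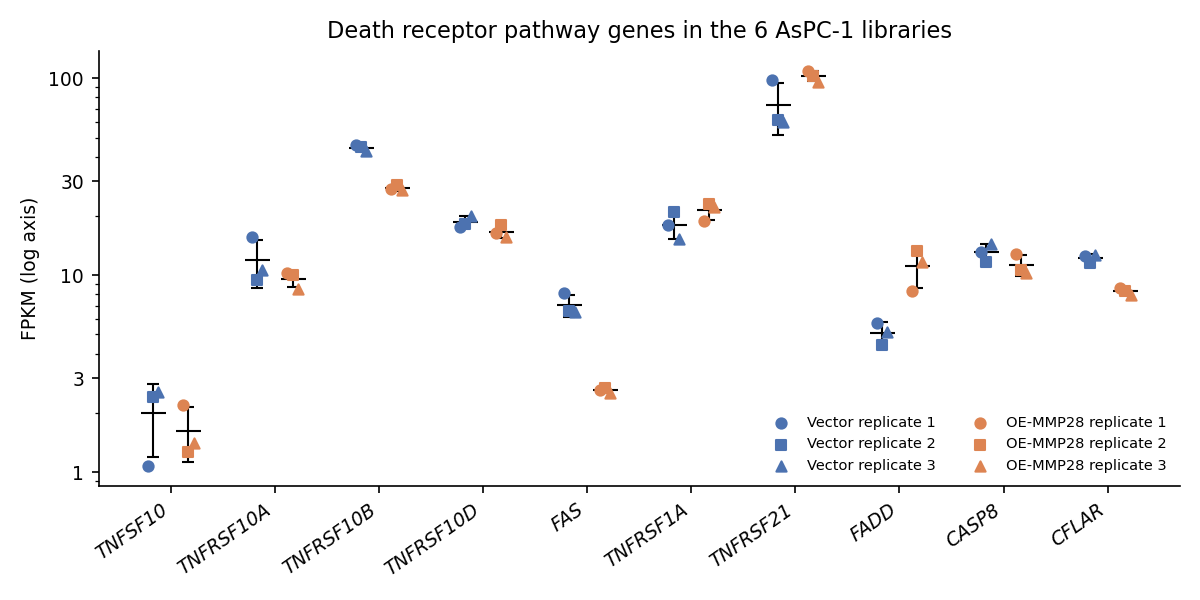
FPKM of each of the 10 genes on a log axis, with blue for the 3 Vector libraries and orange for the 3 OE-MMP28 libraries, a marker shape for each replicate number, and a horizontal line with bars for the mean ± SD. The groups stand apart for TNFRSF10B, FAS, FADD and CFLAR, while for TNFRSF21 Vector replicate 1 lies among the OE-MMP28 libraries.

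The ligand TNFSF10 (ENSG00000121858, GRCh38 chr3, 172505508 to 172523507, minus strand) was the lowest of the 10 genes. TNFSF10 was measured at 1.07, 2.41 and 2.54 FPKM in Vector and at 2.20, 1.27 and 1.40 FPKM in OE-MMP28, from 57 to 130 reads a library. Vector replicate 1 was the lowest library and the groups overlapped. The means were 2.01 ± 0.811 and 1.63 ± 0.504 FPKM, and the difference did not pass the test (log2 fold change −0.29, SE 0.30, 95% interval −0.91 to 0.32, edgeR adjusted p = 0.512). The coefficient of variation was 40.4% in Vector and 31.0% in OE-MMP28, and the interval covers both a fall and a rise of the ligand.

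Of the signalling TRAIL receptors, TNFRSF10B (DR5, ENSG00000120889, chr8, 23020133 to 23069179, minus strand) was the more abundant. It was measured at 45.8, 44.8 and 42.7 FPKM in Vector and at 27.2, 28.7 and 27.1 FPKM in OE-MMP28. Every OE-MMP28 library lay well below every Vector library, and the libraries of a group lay close together, with a coefficient of variation of 3.59% in Vector and 3.23% in OE-MMP28. TNFRSF10B fell from 44.4 ± 1.59 to 27.7 ± 0.895 FPKM (log2 fold change −0.67, SE 0.14, 95% interval −0.96 to −0.38, edgeR adjusted p = 0.00178). Leaving out any library kept the call, at adjusted p of at most 0.0122.

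TNFRSF10A (DR4, ENSG00000104689, chr8, 23190452 to 23225126, minus strand), the other signalling TRAIL receptor, was measured at 15.6, 9.48 and 10.6 FPKM in Vector and at 10.2, 10.004 and 8.54 FPKM in OE-MMP28. Vector replicate 1 was well above the other libraries, and the remaining Vector libraries lay within or next to the OE-MMP28 range. The means were 11.9 ± 3.25 and 9.59 ± 0.914 FPKM, and the difference did not pass the test (log2 fold change −0.30, SE 0.19, 95% interval −0.69 to 0.09, edgeR adjusted p = 0.258). Without Vector replicate 1 the log2 fold change was −0.055. Exons of TNFRSF10A-AS1 and AC100861.1, on the opposite strand, cover 7.59% and 9.01% of the annotated exon length of TNFRSF10A. The strand setting is not given, so a part of the TNFRSF10A reads, and of the ratios that use them, is uncertain. The decoy TNFRSF10D (DcR2, ENSG00000173530, chr8, 23135588 to 23164030, minus strand) was measured at 17.6, 18.3 and 20.0 FPKM in Vector and at 16.4, 17.97 and 15.6 FPKM in OE-MMP28. These ranges overlapped as well, with means of 18.6 ± 1.25 and 16.6 ± 1.23 FPKM (log2 fold change −0.15, SE 0.15, 95% interval −0.46 to 0.16, edgeR adjusted p = 0.504).

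The 3 TRAIL receptors lie within one stretch of chromosome 8, so their levels were also compared with each other inside each library, where library scaling has no part. They are paralogs, and how reads that match more than 1 of them were counted is not given in the sources used here. The decoy TNFRSF10D made up 22.2%, 25.2% and 27.3% of the summed FPKM of TNFRSF10A, TNFRSF10B and TNFRSF10D in Vector and 30.4%, 31.7% and 30.4% in OE-MMP28. The decoy's share was larger in every OE-MMP28 library than in every Vector library. TNFRSF10D itself was not called, and the sum includes TNFRSF10B, which was called lower, so the share is not independent of that fall. The means were 24.9 ± 2.54% and 30.8 ± 0.759%, a difference of 5.91 percentage points with an exact two-sided permutation p of 0.1. That is the smallest p that 3 libraries against 3 can give, so no comparison of this kind could reach the threshold, and adjusted over the 3 ratios compared it was 0.15 (permutation test). The TNFRSF10A to TNFRSF10B ratio was 0.340, 0.212 and 0.248 in Vector and 0.375, 0.349 and 0.315 in OE-MMP28. These ranges overlapped through Vector replicate 1, and the exact permutation p was 0.2 both before and after adjustment.

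**Figure D2:**
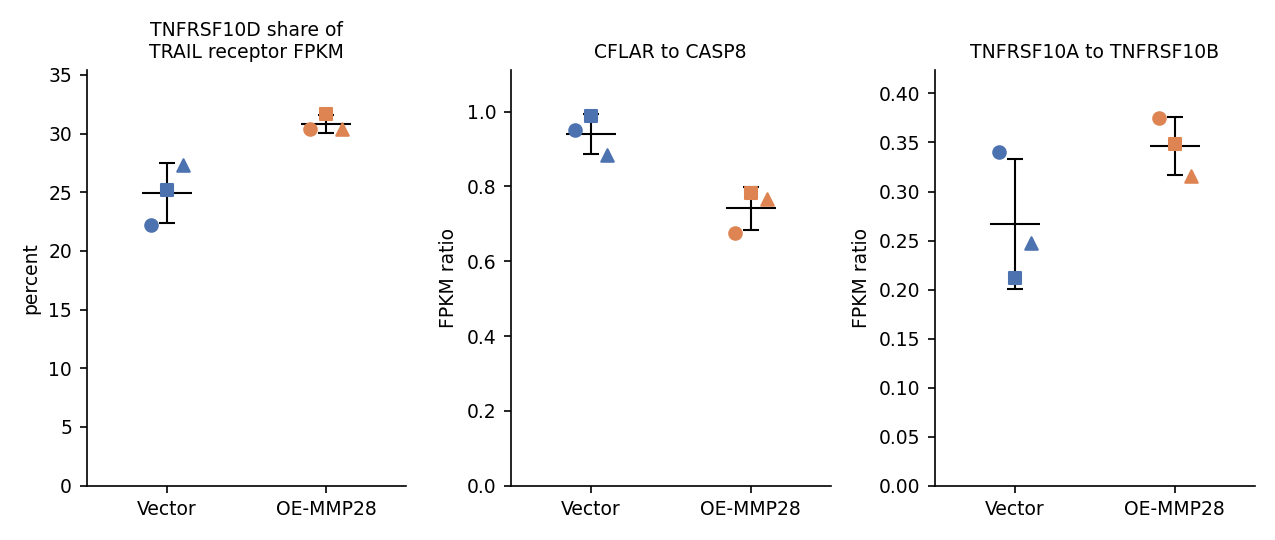
The 3 ratios of FPKM taken within each library, with the TNFRSF10D share of the TRAIL receptors in percent on the left, the CFLAR to CASP8 ratio in the middle and the TNFRSF10A to TNFRSF10B ratio on the right. Circles, squares and triangles are replicates 1, 2 and 3, and lines with bars are means ± SD. The groups stand apart in the left and middle panels and overlap in the right one.

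FAS (ENSG00000026103, chr10, 88990582 to 89015785, plus strand), the receptor of FAS ligand, showed the largest fall of the 10. FAS was measured at 8.07, 6.56 and 6.51 FPKM in Vector and at 2.60, 2.68 and 2.52 FPKM in OE-MMP28. The OE-MMP28 libraries were nearly equal and all lay far below the lowest Vector library. The read counts were 525, 377 and 408 in Vector and 175, 181 and 180 in OE-MMP28. FAS fell from 7.05 ± 0.889 to 2.60 ± 0.0845 FPKM (log2 fold change −1.43, SE 0.18, 95% interval −1.79 to −1.06, edgeR adjusted p = 9.55e-06), and 320 of the 15319 genes tested had a lower log2 fold change. The call was kept in all 18 alternative settings. Exons of ACTA2, on the opposite strand, cover 8.93% of the annotated exon length of FAS. ACTA2 had 64, 71 and 82 reads in Vector and 34, 37 and 28 in OE-MMP28. The strand setting of the counting is not given in the sources used here. It is therefore uncertain to which gene reads from the shared stretch were assigned, or whether they were left out.

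TNFRSF1A (TNFR1, ENSG00000067182, chr12, 6328757 to 6342114, minus strand), the receptor through which TNF builds a TRADD-based complex, was measured at 17.9, 20.9 and 15.2 FPKM in Vector and at 18.8, 23.1 and 22.3 FPKM in OE-MMP28. The groups overlapped and the difference did not pass the test (18.03 ± 2.82 against 21.4 ± 2.28 FPKM, log2 fold change 0.26, SE 0.16, 95% interval −0.08 to 0.59, edgeR adjusted p = 0.259). TNFRSF21 (DR6, ENSG00000146072, chr6, 47231532 to 47309905, minus strand), a death domain receptor outside the TRAIL and FAS systems, was the most abundant of the 10 in both groups. It was measured at 97.7, 61.6 and 59.7 FPKM in Vector and at 109, 103 and 96.2 FPKM in OE-MMP28. Vector replicate 1 was as high as the OE-MMP28 libraries, and the other Vector libraries were clearly lower. TNFRSF21 rose from 73.0 ± 21.4 to 103 ± 6.54 FPKM (log2 fold change 0.51, SE 0.17, 95% interval 0.15 to 0.86, edgeR adjusted p = 0.0381). This was the weakest of the 5 calls and it was lost in 11 of the 18 alternative settings. Without Vector replicate 1 the log2 fold change was 0.77 (edgeR adjusted p = 0.00113), whereas leaving out any other single library gave adjusted p of 0.0656 to 0.209.

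The adaptor FADD (ENSG00000168040, chr11, 70203163 to 70207390, plus strand), the bridge between death receptors and caspase-8, showed the largest rise of the 10. It was measured at 5.72, 4.42 and 5.16 FPKM in Vector and at 8.35, 13.3 and 11.7 FPKM in OE-MMP28. Every OE-MMP28 library was above every Vector library, with OE-MMP28 replicate 1 the lowest of its group. FADD rose from 5.10 ± 0.652 to 11.1 ± 2.53 FPKM (log2 fold change 1.14, SE 0.21, 95% interval 0.71 to 1.57, edgeR adjusted p = 0.000601), and 405 genes had a higher log2 fold change. The annotated transcript AP000879.1 on the opposite strand covers 54.9% of the exon length of FADD and had no read in any library. Since the strand setting is not given, this does not settle whether FADD reads from the shared stretch were left out. The level of FADD, its rank and its ratios to other genes carry this uncertainty.

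CASP8 (ENSG00000064012, chr2, 201233443 to 201287711, plus strand), the initiator caspase, was measured at 13.1, 11.7 and 14.4 FPKM in Vector and at 12.8, 10.6 and 10.3 FPKM in OE-MMP28. The groups overlapped and the difference did not pass the test (13.1 ± 1.34 against 11.3 ± 1.36 FPKM, log2 fold change −0.21, SE 0.15, 95% interval −0.52 to 0.11, edgeR adjusted p = 0.348). CFLAR (ENSG00000003402, chr2, 201116104 to 201176687, plus strand), the inhibitor encoded in the same stretch of chromosome 2, was measured at 12.5, 11.6 and 12.7 FPKM in Vector and at 8.65, 8.31 and 7.91 FPKM in OE-MMP28. The OE-MMP28 libraries all lay below the Vector libraries. CFLAR fell from 12.2 ± 0.595 to 8.29 ± 0.371 FPKM (log2 fold change −0.55, SE 0.14, 95% interval −0.84 to −0.26, edgeR adjusted p = 0.00689), and leaving out single libraries kept the call at adjusted p of at most 0.0495. Within each library, the CFLAR to CASP8 ratio was 0.950, 0.988 and 0.883 in Vector and 0.675, 0.781 and 0.767 in OE-MMP28. The inhibitor was thus lower relative to the caspase in each OE-MMP28 library (0.940 ± 0.053 against 0.741 ± 0.057, a difference of −0.20, exact two-sided permutation p = 0.1, adjusted 0.15).

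A pair of further ratios were computed after the values had been seen and are given without a test. FADD stood to CASP8 at 0.436, 0.378 and 0.359 in Vector and at 0.652, 1.25 and 1.14 in OE-MMP28. FADD stood to FAS at 0.708, 0.674 and 0.793 in Vector and at 3.21, 4.95 and 4.66 in OE-MMP28. The adaptor message was thus less abundant per length than that of FAS in each Vector library and more abundant in each OE-MMP28 library. Over the 10 genes, the groups did not overlap in FPKM for 4 (TNFRSF10B, FAS, CFLAR and FADD), beside 38.1% of all genes tested.

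The 250 bases before the most upstream start that the RefSeq table lists for a gene (GRCh38.p14) are shown for the called members with an entry in the table, to set the windows of lower genes beside those of higher ones. A promoter entry was matched for 7 of the 10 members. GENCODE starts can lie further upstream: the CFLAR window lies wholly within the gene span given above, the FAS window mostly and the FADD window in part, while the TNFRSF21 window lies outside its gene. Capitals mark matches on either strand to the motifs searched, which were the GC box GGGCGG, the TATA box TATAAA, the CCAAT box CCAAT, AP-1 TGANTCA, the E-box CACGTG, ISRE (GAAA, any 2 bases, GAAA) and, by name, the NF-kB consensus and the p53 half-site. The lower genes FAS (chr10:88990548-88990797, plus strand) and CFLAR (chr2:201118466-201118715, plus strand) and the higher genes TNFRSF21 (chr6:47309906-47310155, minus strand) and FADD (chr11:70203046-70203295, plus strand) read, from 5′ to 3′:
FAS: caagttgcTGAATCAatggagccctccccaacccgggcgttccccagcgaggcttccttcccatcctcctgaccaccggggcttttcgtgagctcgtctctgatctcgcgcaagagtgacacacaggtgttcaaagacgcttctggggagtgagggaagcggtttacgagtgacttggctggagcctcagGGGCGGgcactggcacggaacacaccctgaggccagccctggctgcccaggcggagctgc
CFLAR: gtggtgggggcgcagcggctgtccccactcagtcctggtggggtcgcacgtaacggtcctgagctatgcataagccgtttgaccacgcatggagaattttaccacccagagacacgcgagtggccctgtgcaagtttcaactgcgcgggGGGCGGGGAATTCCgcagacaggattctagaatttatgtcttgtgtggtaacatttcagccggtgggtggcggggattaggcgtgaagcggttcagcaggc
TNFRSF21: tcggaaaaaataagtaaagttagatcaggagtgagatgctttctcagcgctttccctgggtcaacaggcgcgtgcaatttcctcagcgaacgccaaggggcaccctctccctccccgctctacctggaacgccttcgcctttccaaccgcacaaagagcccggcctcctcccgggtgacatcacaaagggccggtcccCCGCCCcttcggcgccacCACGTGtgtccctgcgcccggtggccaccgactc
FADD: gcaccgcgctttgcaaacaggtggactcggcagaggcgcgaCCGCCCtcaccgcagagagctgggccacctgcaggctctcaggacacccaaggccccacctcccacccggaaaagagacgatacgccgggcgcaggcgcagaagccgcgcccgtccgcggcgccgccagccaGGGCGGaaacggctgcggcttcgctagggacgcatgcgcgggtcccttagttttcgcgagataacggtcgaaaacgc

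All 4 windows held a GC box, which 42.2% of the 27305 RefSeq promoter windows of the same length hold. The FADD window held this box at 2 positions and was the richest in bases G and C, at 68.8% with 32 CpG dinucleotides, beside medians of 57.6% and 10 over all windows. The FAS window (62.8% GC, 14 CpG) held an AP-1 match, found in 6.57% of all windows. The CFLAR window (58.8% GC, 17 CpG) held an NF-kB consensus match that overlaps the GC box, found in 9.58% of all windows, and the TNFRSF21 window (62.0% GC, 20 CpG) held an E-box, found in 6.46%. Among the members that were not called, the TNFSF10 window held a TATA box (11.2% of all windows) and an ISRE match (3.07%), the TNFRSF1A window a CCAAT box (33.0%) and the CASP8 window a GC box. The p53 half-site, found in 5.50% of all windows, was not matched in the 7 windows. These matches describe letters in the windows and no binding was measured.

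Neighbouring genes on the chromosomes moved with some of the members. Within 10 Mb of TNFRSF10A, TNFRSF10B and TNFRSF10D the median log2 fold change of the other genes tested was between −0.33 and −0.32. Around TNFRSF10B 30 of 99 neighbours were called lower and 6 higher. Around CFLAR and CASP8 the medians were −0.43 and −0.45, with 27 of 76 neighbours of CFLAR called lower and 2 higher. Around FAS the median was −0.46, with 40 of 105 neighbours called lower and 2 higher. Around FADD it was 0.29, with 81 of 332 neighbours called higher and 13 lower. Over all genes tested, 11.6% were called lower and 11.7% higher.

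When each gene was tested against the median of its neighbours, taken as a fixed value without an error of its own, FAS remained lower (log2 fold change −0.97, edgeR adjusted p = 0.000719) and FADD remained higher (0.84, adjusted p = 0.00838). For TNFRSF10B (−0.35, adjusted p = 0.0998) and for CFLAR (−0.12, adjusted p = 0.620) the call was lost. TNFRSF21, whose neighbours had a median of 0.00, was at 0.50 with an adjusted p of 0.0521 in edgeR. TNFSF10 stood in a neighbourhood with a median of 0.50, in which 19 of 42 genes were called higher and 1 lower, and relative to it TNFSF10 was at −0.80 (edgeR adjusted p = 0.0742). Of the 105 neighbours of FAS, 4 had a lower log2 fold change than FAS, and of the 332 neighbours of FADD, 22 had a higher one than FADD.

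**Figure D3:**
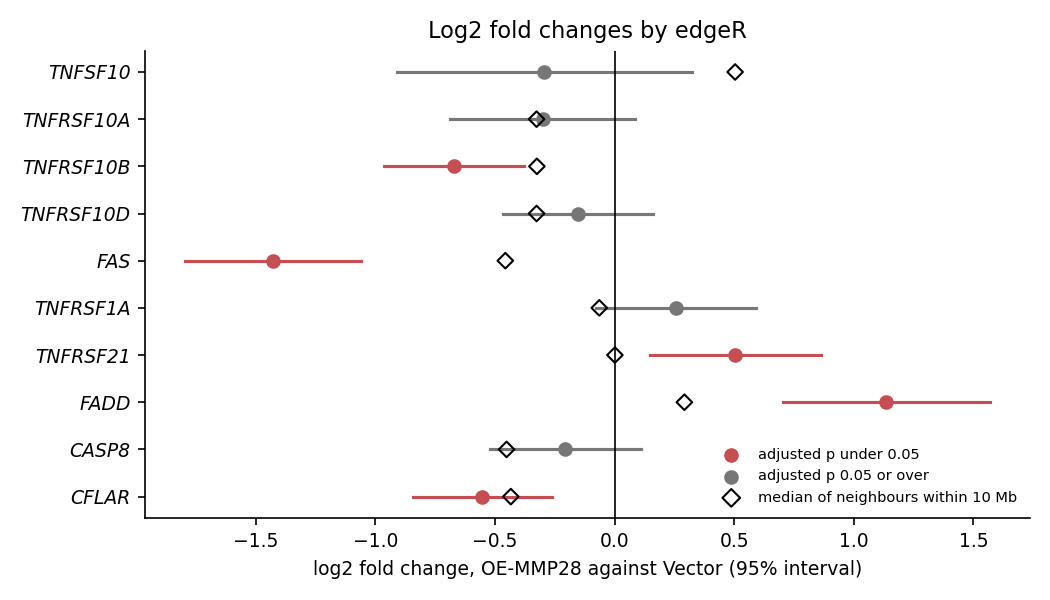
Log2 fold change of OE-MMP28 against Vector for each of the 10 genes from edgeR, with the 95% interval as a line, red where the adjusted p was under 0.05 and grey otherwise, and an open diamond for the median of the genes within 10 Mb. FAS and FADD lie far from their diamonds, at −1.43 against −0.46 and 1.14 against 0.29, while the CFLAR interval covers its diamond.

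**Figure D4:**
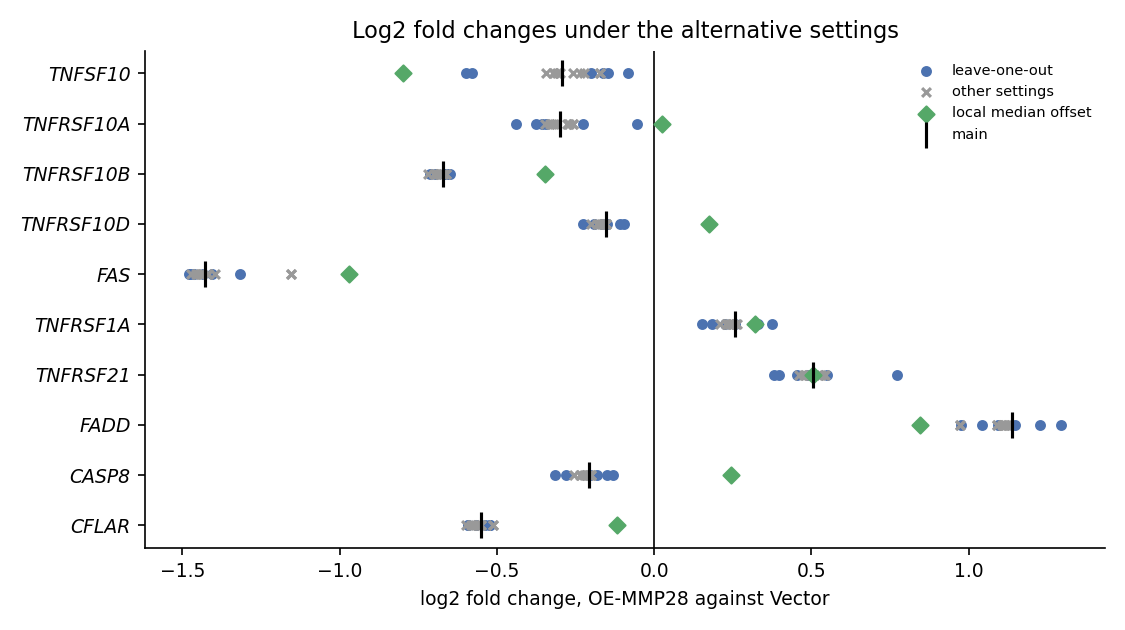
Log2 fold change of each gene under the settings tried, with black bars for the reported value, blue dots for fits without 1 library, grey crosses for other tests, filters and scalings, and green diamonds for the offset by the local median. TNFRSF10A, TNFRSF10D and CASP8 cross 0 at the green diamonds only, and all other genes shown, called or not, keep their side of it at every setting.

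Beyond these 10, a list of 41 other genes of the pathway was read from the same fit, of which 34 had enough reads to be tested. Of the 34, 4 were called higher, 3 lower and 27 were not called, so 20.6% were called beside 23.4% of all genes tested, and their median log2 fold change was −0.077. Among the ligands, FASLG, which encodes the ligand of FAS, had no read in any library, and TNF and LTA had at most 1 read. The receptors EDA2R and NGFR and the glycosyltransferase GALNT14 also had no read in any library, which allows at most 3 reads, or 0.220 CPM in the smallest library. TNFSF15, a ligand of TNFRSF25, was tested and was higher. It was measured at 15.6, 15.9 and 13.8 FPKM in Vector and at 24.02, 21.3 and 18.2 in OE-MMP28 (log2 fold change 0.50, SE 0.15, edgeR adjusted p = 0.0200), and the call was lost without Vector replicate 3 (adjusted p = 0.127), OE-MMP28 replicate 1 (0.0727) or OE-MMP28 replicate 2 (0.0959). It was also lost against the local median (adjusted p = 0.0898) and in the 3 limma fits on FPKM (0.0620 to 0.111).

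Of the 4 other receptors tested, TNFRSF1B was higher and TNFRSF25 lower. TNFRSF1B, a TNF receptor that has no death domain, was measured at 12.8, 7.70 and 8.67 FPKM in Vector and at 18.1, 19.0 and 21.5 in OE-MMP28 (log2 fold change 1.02, SE 0.18, edgeR adjusted p = 0.000522), beside the uncalled TNFRSF1A. TNFRSF25 (DR3), a death domain receptor, was measured at 6.14, 6.44 and 7.41 FPKM in Vector and at 2.61, 3.40 and 4.34 in OE-MMP28 (log2 fold change −0.93, SE 0.20, edgeR adjusted p = 0.00186). Both pairs of ranges stood apart. Exons of PLEKHG5 on the same strand cover 2.43% of the TNFRSF25 exon length and those of ESPN on the other strand 8.94%, so a part of its reads is uncertain.

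CASP10, the caspase most like CASP8, lies between CFLAR and CASP8 on chromosome 2 (201182881 to 201229406) and was the 1 gene called by edgeR of 7 other death effector domain and receptor-proximal genes. It was measured at 6.36, 7.23 and 5.29 FPKM in Vector and at 2.99, 2.76 and 2.66 in OE-MMP28. The ranges stood apart, and CASP10 fell from 6.29 ± 0.971 to 2.80 ± 0.167 FPKM (log2 fold change −1.15, SE 0.17, edgeR adjusted p = 5.84e-05). Against the median of its neighbours it was at −0.72 (edgeR adjusted p = 0.00555), where CFLAR and CASP8, on either side of it, were not called. Of the 8 adaptors and ubiquitin ligases, RNF31, the catalytic subunit of the linear ubiquitin ligase complex, was the 1 called by edgeR. RNF31 was measured at 2.98, 2.50 and 3.21 FPKM in Vector and at 4.58, 5.01 and 4.44 in OE-MMP28 (log2 fold change 0.70, SE 0.18, edgeR adjusted p = 0.00699). The call was lost without OE-MMP28 replicate 2 (adjusted p = 0.0560) and against the local median of 0.58 (log2 fold change 0.12, adjusted p = 0.695). AL136295.5, annotated in the same orientation, shares 34.8% of the RNF31 exon length, and PSME2 on the other strand shares 4.34%. PSME2 had 1192, 1122 and 1098 reads in Vector and 2056, 2165 and 2702 in OE-MMP28. The strand setting is not given, and the part of PSME2 reads in the RNF31 counts was not tested. RIPK1, a kinase of the receptor complexes named here after its values were seen, was at 10.3, 8.69 and 9.88 FPKM in Vector and 8.10, 6.63 and 6.59 in OE-MMP28. Its ranges stood apart, and it missed the threshold in edgeR (log2 fold change −0.43, SE 0.16, adjusted p = 0.0599) and passed it in DESeq2 (adjusted p = 0.0436).

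Of the 8 executioners and genes of the mitochondrial link, CYCS, which encodes cytochrome c, was higher, at 51.6, 29.3 and 40.2 FPKM in Vector and 70.2, 60.8 and 60.8 in OE-MMP28 (log2 fold change 0.67, SE 0.17, edgeR adjusted p = 0.00816). The ranges stood apart, but CYCS has processed pseudogenes of near-identical sequence, which leaves its reads uncertain. The call was lost in the 3 limma fits on FPKM (adjusted p of 0.0583 to 0.151). The 3 caspase inhibitors and both necroptosis genes were not called by edgeR, DESeq2 or limma voom, at edgeR unadjusted p of 0.0634 or more. ZDHHC7, a palmitoyltransferase that acts on FAS, was measured at 21.9, 19.6 and 19.2 FPKM in Vector and at 13.0, 14.4 and 12.8 in OE-MMP28. These ranges stood apart and ZDHHC7 fell by 0.58 on the log2 scale (SE 0.15, edgeR adjusted p = 0.00782), though against its local median of −0.29 the call was lost (log2 fold change −0.29, adjusted p = 0.205).

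**Figure D5:**
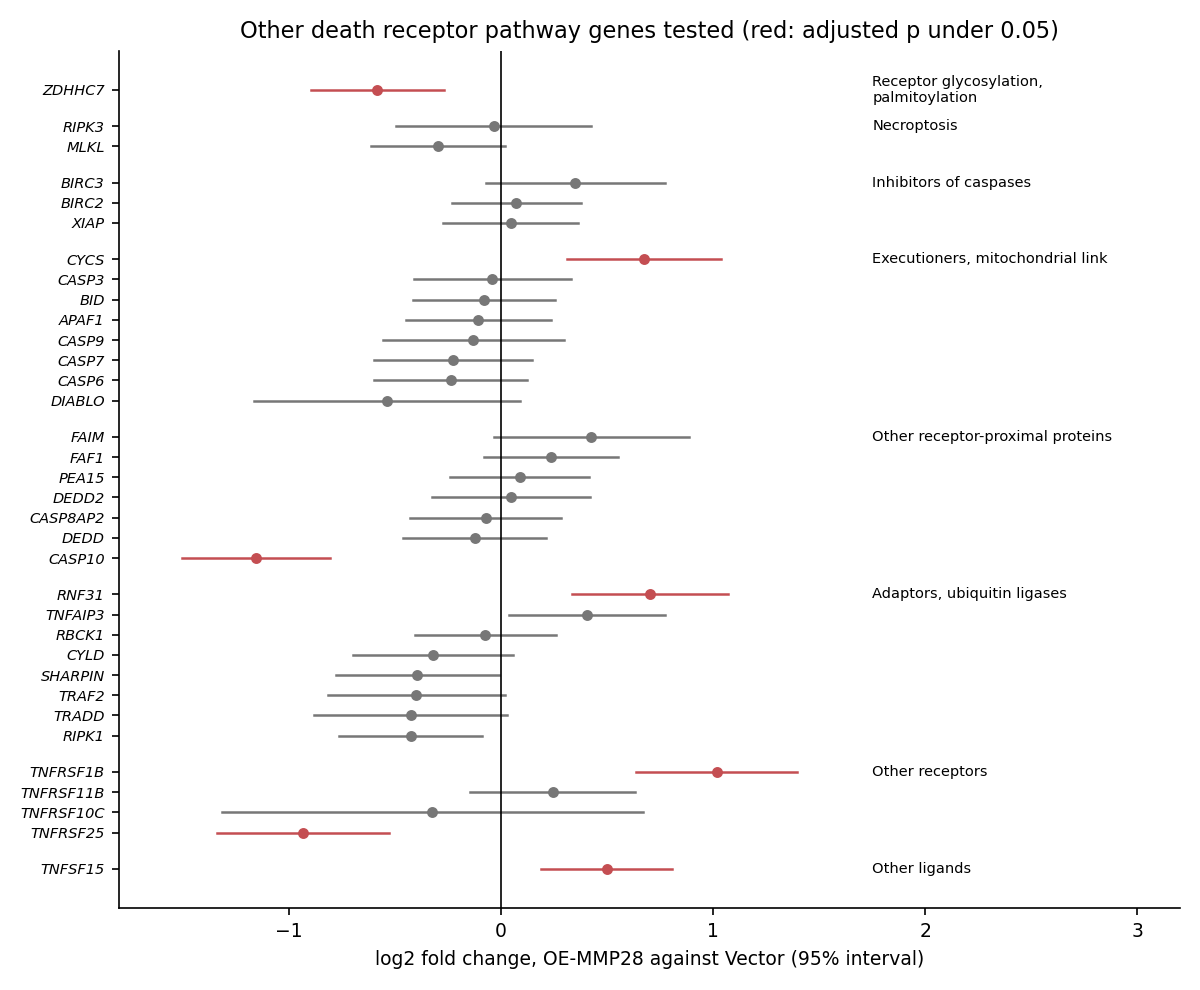
Log2 fold change of OE-MMP28 against Vector from edgeR for the 34 other pathway genes tested, grouped by role, with 95% intervals as lines and red where the adjusted p was under 0.05. The 7 red genes are ZDHHC7, CASP10 and TNFRSF25 on the lower side and CYCS, RNF31, TNFRSF1B and TNFSF15 on the higher side.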

How the data were processed

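RNA of 6 AsPC-1 samples, 3 per group, was sequenced after preparation with an Illumina library kit. The deposited table holds read counts per gene and FPKM values made by the authors. Its columns of the authors' group means, fold changes and p-values for the comparison were not used. The submitters' processing notes name HISAT2 2.0.5 and featureCounts 1.5.0-p3, and counting options, strand setting and build are not given in the sources used here. All 58735 gene identifiers and coordinates matched GENCODE 29 on GRCh38. FPKM was read as deposited, and the totals it implies differed from the summed counts by −2.01% to 2.02%.

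Counts were tested with edgeR 4.0.16 (quasi-likelihood test, filterByExpr at 10 reads, 15 in total, TMM scaling, group only) in R 4.3.3, with Benjamini-Hochberg adjustment over 15319 genes. Ratios were compared by two-sided exact permutation tests. The neighbourhood of a gene was all other tested genes within 10 Mb, and their median log2 fold change served as an offset where there were at least 10. DESeq2 1.42.0, limma 3.58.1 (voom, and log2(FPKM + 1) or log2(FPKM + 0.1) with a mean FPKM of at least 0.5), other filters and scalings, and fits without each library were alternatives. The fits were checked on simulated data.

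The members and the pathway lists were chosen with earlier results of these data known. All 10 members, MMP28, and those genes of the other pathway lists that edgeR called or that had at most 3 reads in every library are named. RIPK1 and the markers KRT19, CLDN4 and PECAM1 were named after their values were seen. DIABLO, listed under a pair of identifiers, was taken from the row with more reads. Samples with the same replicate number did not deviate together, and no pair of libraries agreed within sampling noise. Sequences from chromosome 8 are not shown. Depth covers counting error only, and FPKM values carry the counting error of the reads behind them.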

Additional observations from a re-analysis of the deposited data

How the results depend on the processing

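FAS stayed lower in all 18 alternatives, and TNFRSF10B and CFLAR lost their calls under the local median offset, where 1 member was called lower. FADD lost its call when limma was run on unfiltered log2(FPKM + 1), at an adjusted p of 0.0554. The offset turned the sign of 3 uncalled genes, TNFRSF10A (0.026), TNFRSF10D (0.17) and CASP8 (0.24). Members called higher were 1 under upper-quartile scaling, limma on log2(FPKM + 1) or log2(FPKM + 0.1), counts without mitochondrial genes and the offset, and 0 in limma without a filter (2 at an unadjusted p under 0.05, and 2 by DESeq2 and voom). The other pathway genes called higher were 2 in filtered limma on FPKM and under the offset, and 0 in limma without a filter (4 at an unadjusted p under 0.05). Over all genes, 1795 were higher and 1784 lower. These were 1009 and 965 in limma on log2(FPKM + 1), 1000 and 970 on log2(FPKM + 0.1), 362 and 308 without a filter, and 1100 higher under the offset. Without single libraries they ran from 985 to 1916 higher and from 1044 to 1949 lower, with the fewest without OE-MMP28 replicate 2 and 1136 higher without Vector replicate 3. Members higher then ran from 1 to 2, and other pathway genes from 2 to 6 higher and from 3 to 4 lower, with the 6 without Vector replicate 1. The replicate numbers did not pair the samples (correlations of deviations −0.0876 to 0.0168 at the same number, and no library was closest to its own number). A fit with the replicate block called 1844 genes higher and 1841 lower, with the counts of members at 2 and 3. Fewer samples enter the fits without a library, and the cause of the other changes was not tested. With 57 to 130 reads for TNFSF10, the spread between its libraries and 3 libraries a group, small differences were not detectable.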
